A study of Mus musculus with 46 samples.

Results

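The primary granule genes of neutrophil precursors, Mpo, Elane, Prtn3, Ctsg, Ms4a3 and Prss57, were taken by name from a table of 46264 mouse gene symbols measured by bulk RNA sequencing in 46 libraries. All 6 of 6 symbols were found. Their levels were followed over 3 times of one experiment and across 4 labelled tissues, together with lists of marker genes for other stages and cell types. The series is built on mice with antibodies to laminin 332, which model the blistering disease mucous membrane pemphigoid, and on intravenous immunoglobulin (IVIG), pooled antibody given into a vein. Neutrophil and blood libraries number 5 with IVIG and 5 with phosphate-buffered saline (PBS) each, monocyte libraries 3 with IVIG and 5 with PBS, and skin libraries 3 of each. The protocol describes the neutrophils and monocytes as bone marrow derived. A separate experiment labelled Ics has 4 libraries, numbered m1 to m4, at 3 times: unstimulated, taken here as 0 h, and 3 h and 6 h of stimulation. What Ics stands for and which cells were used are not stated, and strain, sex, age and genotype are not given in the sources used here for any group. Titles of the tissue libraries carry a set code, S2, S3 or S5, and a number, and the labels do not say what either marks. The 10 neutrophil libraries are 7 of S3, 2 of S5 and 1 of S2, the 8 monocyte libraries 3 of S3, 4 of S5 and 1 of S2, the 10 blood libraries 8 of S3 and 2 of S5, and the 6 skin libraries all of S5. A set code with the same number recurs in more than 1 tissue for 12 pairs, and 3 of these carry both treatments, so the numbers are not a stated pairing. P-values therefore reflect only library-to-library spread, which may be technical.

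Primary, or azurophil, granules are the first granules that a neutrophil precursor packs, at the promyelocyte stage in the bone marrow. Their enzymes are transcribed for a short window and then stored, so a mature neutrophil carries the proteins with little of the mRNA. Monocyte precursors transcribe many of the same genes. Mpo codes for myeloperoxidase, which makes hypochlorous acid from hydrogen peroxide and chloride. Elane (neutrophil elastase), Prtn3 (proteinase 3) and Ctsg (cathepsin G) are serine proteases, and Prss57 codes for neutrophil serine protease 4. Ms4a3 codes for a membrane protein of the MS4A family that is used to trace granulocyte and monocyte progenitors.

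In GENCODE vM21 on GRCm38, 3 of the genes lie close together on chromosome 10: Prss57 at chr10:79781474-79790961 on the minus strand, Prtn3 at chr10:79874476-79883174 on the plus strand and Elane at chr10:79886247-79888215 on the plus strand. Prtn3 ends 3072 bases before Elane begins, and 83514 bases separate Prss57 from Prtn3. Mpo lies at chr11:87793581-87804413 on the plus strand, Ctsg at chr14:56099881-56102574 on the minus strand and Ms4a3 at chr19:11629496-11640851 on the minus strand. RefSeq promoters of 250 bases before to 50 after the start, on GRCm38.p6, were at hand for 5 of the genes. Those of Elane, Prtn3 and Mpo are shown because the neighbours Elane and Prtn3 changed together with Mpo in the results that follow. Capitals mark GAGGAA, the core bound by PU.1, and CAACNG, a MYB motif, searched on both strands.
Elane, plus strand, chr10:79886062-79886361: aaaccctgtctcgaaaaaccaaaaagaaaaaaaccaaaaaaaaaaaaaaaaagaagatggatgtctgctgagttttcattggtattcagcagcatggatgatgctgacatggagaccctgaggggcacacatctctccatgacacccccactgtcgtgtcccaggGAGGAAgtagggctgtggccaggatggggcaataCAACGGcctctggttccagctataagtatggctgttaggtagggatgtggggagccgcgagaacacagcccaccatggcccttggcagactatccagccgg
Prtn3, plus strand, chr10:79879417-79879716: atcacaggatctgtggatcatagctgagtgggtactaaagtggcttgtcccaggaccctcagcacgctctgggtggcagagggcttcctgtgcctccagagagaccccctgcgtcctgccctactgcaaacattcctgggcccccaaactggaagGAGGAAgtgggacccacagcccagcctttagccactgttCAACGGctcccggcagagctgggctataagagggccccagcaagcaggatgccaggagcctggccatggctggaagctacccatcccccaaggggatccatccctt
Mpo, plus strand, chr11:87793534-87793833: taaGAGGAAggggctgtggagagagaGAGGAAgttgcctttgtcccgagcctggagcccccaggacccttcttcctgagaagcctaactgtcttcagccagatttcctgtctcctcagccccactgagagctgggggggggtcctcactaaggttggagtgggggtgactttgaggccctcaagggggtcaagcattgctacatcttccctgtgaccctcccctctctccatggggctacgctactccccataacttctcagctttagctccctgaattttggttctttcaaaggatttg
GAGGAA was present in 5 of 5 promoters and in 28.3% of 32851 mouse promoters of the same length. In Elane it began 85 bases before the start, with CAACGG beginning 51 bases before. In Prtn3 the same pair began 95 and 56 bases before the start. CAACNG occurred in 3 of 5 promoters, those of Elane, Prtn3 and Ctsg, and in 35.0% of all promoters. A C/EBP motif, TTGCNNAA, occurred in 1 of 5, that of Ms4a3, against 10.8% of all promoters, and its looser form TTNCNNAA in the same 1 of 5 against 40.7%. The RUNX motif TGTGGT was in 1 of 5 (Ctsg) against 16.8%, TATAAA in 1 of 5 (Ctsg) against 13.6%, and the GFI1 motif AAATCNC in 0 of 5 against 11.7%. The TATAAA match in Ctsg was on the opposite strand, beginning 237 bases before the start. Forms that differ by a letter, such as TATAAG in the Elane and Prtn3 promoters, were not counted. A match is a string of letters in this window and is not a measured site.

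Library totals were 24827628 to 29502785 estimated counts in the Ics libraries and 18965431 to 43176537 in all 46. Levels are given in CPM, counts scaled to a common library total. Each labelled tissue was checked with genes outside the 6: haemoglobin at 10% of counts or more marked blood, Krt5 and Krt14 together at 100 CPM or more marked skin, and S100a8 and S100a9 together at 10000 CPM or more marked neutrophils. A library with none of these marks was taken to match the label monocyte. All 12 Ics libraries carried the neutrophil mark. Of the 34 others, 25 matched their label and 9 did not, and results that rest on the 9 are given with and without them. By marks the 34 held 10 blood, 10 neutrophil, 8 unmarked and 6 skin libraries, the same numbers as by label. Whether names were exchanged was not tested. If they were, leaving out the 9 would not correct the treatment or set code of the 25.

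All 6 genes were lower at 3 h and lower again at 6 h in the Ics experiment, the question being how precursor transcripts stood after the unstimulated state. Mpo averaged 98.8 ± 35.9 CPM at 0 h, 30.9 ± 14.3 CPM at 3 h and 6.89 ± 3.80 CPM at 6 h (SD, n = 4 each), so that 6 h held 6.98% of the 0 h level. Of 14996 genes tested, 91 had a lower log2 change than Mpo at 6 h against 0 h. In bulk samples, fewer cells of a type and less RNA per cell cannot be told apart. No unstimulated library is labelled for 3 h or 6 h, so stimulation and time since 0 h cannot be told apart either. In edgeR's quasi-likelihood test, 6 of 6 fell at 3 h against 0 h, 6 of 6 at 6 h against 0 h and 6 of 6 at 6 h against 3 h, while 27.5%, 30.4% and 20.3% of all genes tested fell in the same comparisons and 26.9%, 29.6% and 20.5% rose. Their median log2 changes were -1.39, -2.77 and -1.50, beside -0.06, -0.06 and -0.03 for all genes tested. Scaling by library totals alone, as CPM does, places the all-gene median at -0.30 for 3 h against 0 h, -0.22 for 6 h against 0 h and 0.05 for 6 h against 3 h. On that scale 2696 genes rose and 6346 fell at 3 h against 0 h, beside 4034 and 4127 with edgeR's TMM factors. At 6 h against 0 h 3456 rose and 5780 fell, beside 4439 and 4560 with TMM, and at 6 h against 3 h 3905 rose and 2427 fell, beside 3067 and 3050 with TMM. The 6 genes fell in all 3 comparisons on both scales.

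**Figure D1:**
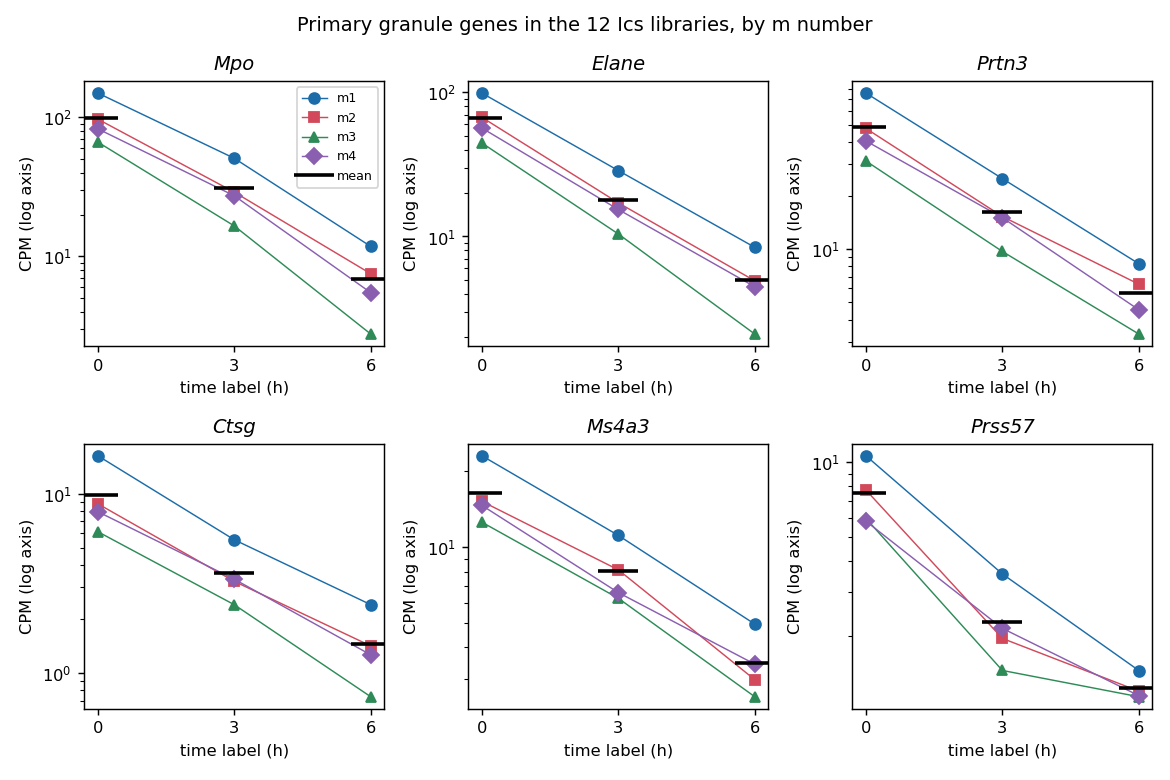
Level of each gene (y, CPM, log axis) at 0, 3 and 6 h (x) in the 12 Ics libraries; lines join libraries with the same m number, which the labels do not define, and black bars are means of 4. Mpo means step down over 98.8, 30.9 and 6.89 CPM, and m1 is the highest library for every gene at every time.

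Mpo stood at 149, 96.9, 66.3 and 82.6 CPM in m1 to m4 at 0 h. At 3 h the same numbers held 50.7, 29.0, 16.6 and 27.3 CPM, and at 6 h 11.8, 7.51, 2.77 and 5.49 CPM. No library at a later time reached any library at an earlier one. The log2 change of Mpo was -1.43 ± 0.349 (SE) at 3 h against 0 h (edgeR adjusted p = 0.00291), -3.67 ± 0.394 at 6 h against 0 h (adjusted p = 1.57e-06) and -2.24 ± 0.385 at 6 h against 3 h (adjusted p = 0.000307).

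Elane, the elastase that degrades matrix and bacterial proteins, held 98.9, 67.1, 44.5 and 56.5 CPM in m1 to m4 at 0 h, 28.7, 17.1, 10.4 and 15.4 CPM at 3 h, and 8.41, 4.92, 2.10 and 4.48 CPM at 6 h. Again the 3 times did not overlap. Its change was -1.65 ± 0.330 at 3 h against 0 h (edgeR adjusted p = 0.000651), -3.58 ± 0.368 at 6 h against 0 h (adjusted p = 1.04e-06) and -1.92 ± 0.361 at 6 h against 3 h (adjusted p = 0.000651). Prtn3, the neighbouring protease gene and the antigen of many antibodies against neutrophil cytoplasm in human vasculitis, held 75.7, 47.8, 31.4 and 40.7 CPM at 0 h, 25.0, 15.3, 9.70 and 15.0 CPM at 3 h, and 8.27, 6.34, 3.32 and 4.55 CPM at 6 h. These times did not overlap either. Prtn3 changed by -1.34 ± 0.299 at 3 h against 0 h (edgeR adjusted p = 0.00151), -2.95 ± 0.324 at 6 h against 0 h (adjusted p = 2.01e-06) and -1.61 ± 0.320 at 6 h against 3 h (adjusted p = 0.00102).

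Ctsg, which codes for a protease of mixed specificity, held 16.3, 8.78, 6.14 and 7.93 CPM at 0 h, 5.53, 3.24, 2.40 and 3.34 CPM at 3 h, and 2.41, 1.42, 0.738 and 1.26 CPM at 6 h. The 6 h library m1 stood just above the lowest 3 h library, m3, so Ctsg overlapped between those 2 times and between no others. Its changes were -1.18 ± 0.332 at 3 h against 0 h (edgeR adjusted p = 0.00762), -2.58 ± 0.359 at 6 h against 0 h (adjusted p = 2.24e-05) and -1.40 ± 0.362 at 6 h against 3 h (adjusted p = 0.00678). Ms4a3 held 23.1, 15.2, 12.6 and 14.7 CPM at 0 h, 11.1, 8.13, 6.27 and 6.60 CPM at 3 h, and 4.95, 2.98, 2.55 and 3.43 CPM at 6 h. Its 3 times did not overlap, and its changes were the smallest of the 6 at 3 h and at 6 h against 0 h: -0.78 ± 0.222 (edgeR adjusted p = 0.00815) and -2.07 ± 0.235 (adjusted p = 2.85e-06). At 6 h against 3 h it was at -1.29 ± 0.236 (adjusted p = 0.000527).

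Prss57, whose product cuts after arginine, held 10.6, 7.74, 5.95 and 5.80 CPM at 0 h, 3.56, 1.96, 1.46 and 2.15 CPM at 3 h, and 1.46, 1.20, 1.14 and 1.16 CPM at 6 h. The 0 h values stood apart from the later ones, but m3 at 3 h and m1 at 6 h were both at 1.46 CPM. Any margin between 3 h and 6 h is within counting error, as the 6 h values rest on 31 to 43 counts. Prss57 changed by -1.47 ± 0.246 at 3 h against 0 h (edgeR adjusted p = 0.00014), -2.43 ± 0.260 at 6 h against 0 h (adjusted p = 1.53e-06) and -0.96 ± 0.266 at 6 h against 3 h (adjusted p = 0.00994). It overlaps Fstl3 on the opposite strand over 1157 bases and Prtn3 overlaps Plppr3 over 159 bases. Whether counting used strand is not given in the sources used here, so reads in these stretches cannot be assigned with certainty. Fstl3 averaged 4.26 ± 0.83 CPM at 0 h, 1.53 ± 0.45 CPM at 3 h and 2.41 ± 0.52 CPM at 6 h, and Plppr3 7.47 ± 2.39, 3.66 ± 1.30 and 2.17 ± 0.72 CPM at the same times (SD, n = 4).

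**Figure D2:**
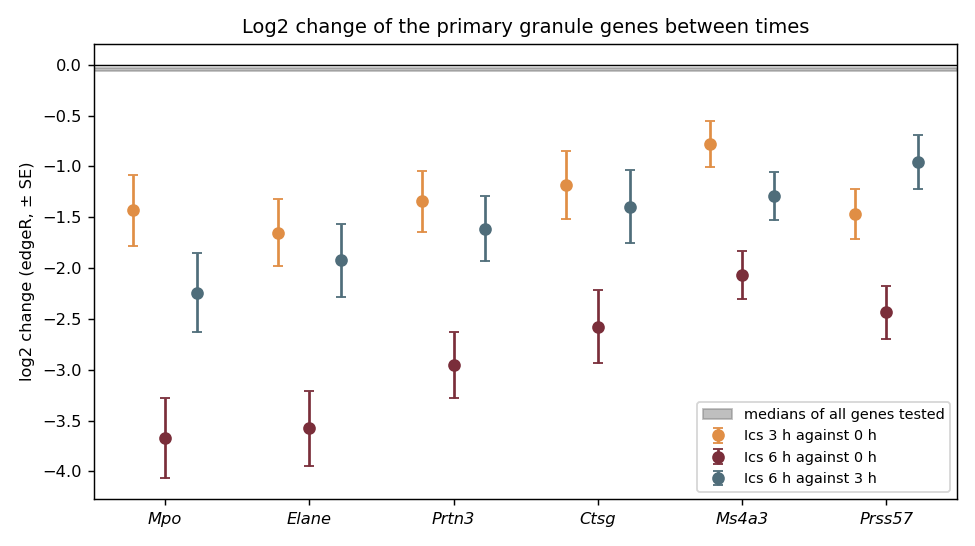
Log2 change (y, edgeR estimate ± SE) of each gene (x) for 3 h against 0 h, 6 h against 0 h and 6 h against 3 h; the grey band spans the medians of all genes tested. Every point lies below the band, from -0.78 (Ms4a3 at 3 h) to -3.67 (Mpo at 6 h against 0 h).

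Per kilobase of the longest coding transcript, Elane had the highest median at 0 h, 62.8 CPM per kilobase, ahead of Prtn3 at 43.2 and Mpo at 32.6, with Ms4a3 at 14.8, Ctsg at 8.34 and Prss57 the lowest at 2.41. Ranges of neighbours in this order overlapped except between Mpo and Ms4a3 and between Ctsg and Prss57. These ranges run across libraries, so they do not show the order within a library. Within single 0 h libraries, Elane held 66.3 to 69.2% and Prtn3 47.3 to 50.7% of Mpo counts, before division by length. Coding transcripts run from 495 to 2841 bases for Prss57 and from 640 to 2750 for Mpo. The places of these genes in the order therefore depend on the transcript taken. At 6 h the medians were 5.31 CPM per kilobase for Prtn3, 4.78 for Elane, 3.17 for Ms4a3 and 2.36 for Mpo, again with overlapping ranges.

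Relative to Mpo, several of the transcripts held other shares at the later times. Ms4a3 counts amounted to 17.0 ± 1.7% of Mpo counts at 0 h, 28.0 ± 7.0% at 3 h and 59.0 ± 24.3% at 6 h (SD, n = 4). The 4 libraries at each later time lay above all 4 at the earlier one. The exact permutation test, two-sided, gave an adjusted p of 0.0381 for 6 h against 0 h and the same for 3 h against 0 h, over 20 such tests, where 4 against 4 libraries allow no unadjusted p below 0.0286. Ctsg stood at 22.2 ± 3.4% of Mpo at 6 h, against 9.71 ± 0.83% at 0 h, and Prtn3 at 89.4 ± 21.4% at 6 h, against 49.2 ± 1.4% at 0 h, each without overlap (exact permutation adjusted p = 0.0381, n = 4 each). Prss57 stood at 22.7 ± 12.9% at 6 h, against 7.78 ± 0.91% at 0 h, also without overlap. At 3 h neither passed: Prtn3 was at 53.9 ± 3.9%, against 49.2 ± 1.4% at 0 h (exact permutation adjusted p = 0.143, n = 4 each), and Prss57 at 7.63 ± 0.92%, against 7.78 ± 0.91% at 0 h (exact permutation adjusted p = 0.686), both overlapping. Elane was at 58.7 ± 3.0% at 3 h, below all 0 h libraries at 67.8 ± 1.3% (exact permutation adjusted p = 0.0381, n = 4 each), and at 73.6 ± 6.8% at 6 h, which overlapped 0 h (adjusted p = 0.202). These ratios were chosen after the levels had been seen.

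**Figure D3:**
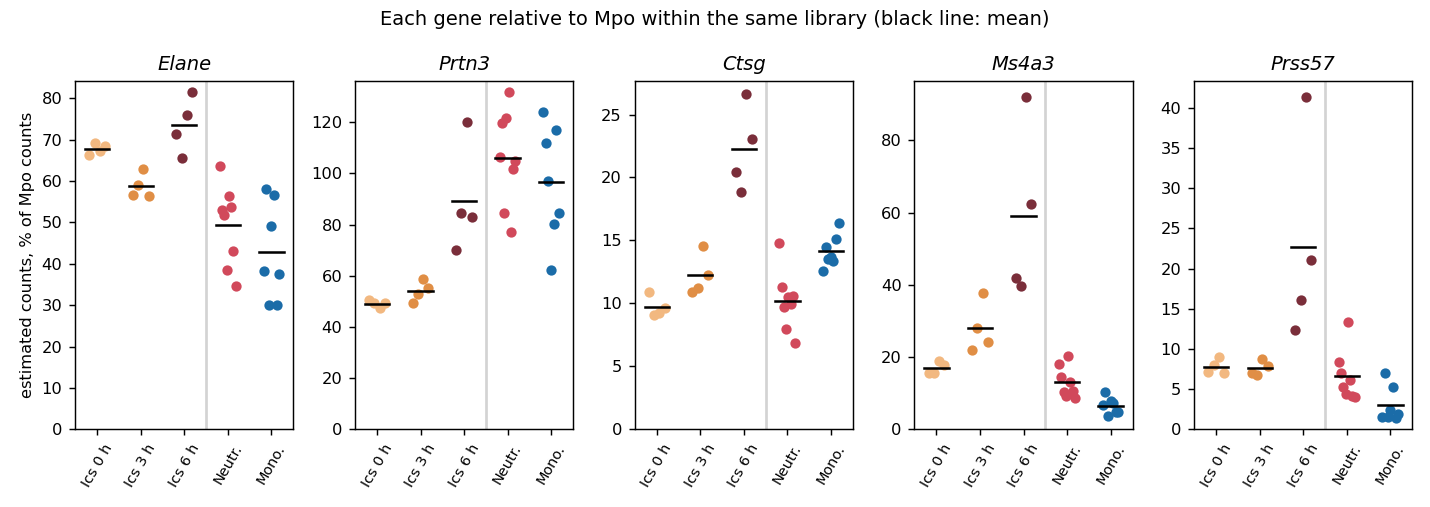
Estimated counts of each gene as a percentage of Mpo counts in the same library (y), for 4 Ics libraries at each time, 8 neutrophil and 7 monocyte libraries whose markers match their label (x); black lines are means. The Ms4a3 share stands at 59.0% at Ics 6 h, 13.1% in neutrophil and 6.49% in monocyte libraries.

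Libraries of one time differed widely in these genes. At 0 h the coefficient of variation (CV) was 36.4% for Mpo, 34.9% for Elane, 39.1% for Prtn3, 45.7% for Ctsg, 28.2% for Ms4a3 and 29.8% for Prss57. For 8592 genes with a mean of at least 5 CPM at that time the median CV was 7.52%, and 95% of them were under 24.4%. The spread followed the m number: m1 was highest at all 3 times for 6 of 6 genes, against 5.72% of all genes tested, and m3 was lowest at all 3 times for 5 of 6, Prss57 being the exception, against 4.73%. Leaving out the 3 m1 libraries, an alternative added after seeing the data, left 6 of 6 lower in each comparison. The 8 basophil and mast cell genes also stood apart in m1, with sums of 24.7, 22.6 and 18.7 CPM at 0, 3 and 6 h, against 4.71 to 9.1 CPM in the other 9 libraries. Within times, deviations of the 20 proliferation genes tracked those of the 6 (Pearson r = 0.94), as did those of 8 eosinophil genes (r = 0.93), over 12 libraries that share depth and preparation. What part these play in the spread was not tested.

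The 6 genes tracked each other over the 12 Ics libraries, with pairwise r of log2(CPM + 1) from 0.935 to 0.996, and from 0.796 to 0.993 after centring each time. The search outside the 6 covered 8586 genes with a mean of at least 5 CPM at 0 h, when the 6 were highest. Genes below that at 0 h were left out, so ranks and medians hold for this set only. Closest to the mean of the 6 was Fcnb at r = 0.995, the gene of ficolin B, a lectin of granulocyte precursors. Next were Tm7sf3 (0.990), Plac8 (0.989), Nkg7 (0.986) and Lmnb2 (0.982). The median gene stood at r = 0.238. After centring within times, the closest were Dut (0.984), Fcho1 (0.979), Rps23-ps1 (0.975), Banf1 (0.974) and Dtymk (0.971), with a median of 0.142. Dut and Dtymk code for enzymes that supply thymidine nucleotides for DNA synthesis.

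Other genes of the early granulocyte programme fell too. Of all genes tested, 27.5% fell and 26.9% rose at 3 h against 0 h, and 30.4% and 29.6% at 6 h. Of 11 tested progenitor surface and early genes, 8 fell and 1 rose at 3 h, and 9 fell and 1 rose at 6 h, both against 0 h. Fcnb averaged 110 ± 18.2 CPM at 0 h, 60.8 ± 10.2 CPM at 3 h and 32.3 ± 7.68 CPM at 6 h. Clec12a, an inhibitory lectin receptor, changed by -1.38 ± 0.0567 at 3 h and -1.59 ± 0.0570 at 6 h against 0 h, and Hk3, a hexokinase of myeloid cells, by -1.18 ± 0.0495 and -1.17 ± 0.0495. The gene that rose was Cd93, a receptor also found on activated myeloid cells, at 3.37 ± 0.0869 for 6 h against 0 h. Kit, the stem cell factor receptor, averaged 17.7 ± 2.93 CPM at 0 h, 13.6 ± 4.21 CPM at 3 h and 8.14 ± 2.55 CPM at 6 h.

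The transcription factors of granulocyte precursors were mixed. Of 10 tested, 2 fell and 2 rose at 3 h against 0 h, near the 27.5% and 26.9% of all genes tested. At 6 h against 0 h 5 fell and 1 rose, beside 30.4% and 29.6% of all genes tested. Cebpa, a factor needed to enter the granulocyte line, rose by 1.12 ± 0.083 at 3 h and 1.63 ± 0.0834 at 6 h. Cebpe, which drives secondary granule genes, changed by -0.57 ± 0.0877 and -0.96 ± 0.0884, and Gfi1, a repressor, by -0.60 ± 0.135 at 6 h. Myb, which is high in dividing precursors, did not pass the test at either time against 0 h, changed by -0.40 ± 0.115 at 6 h against 3 h (edgeR adjusted p = 0.0117), and averaged 56.5 ± 6.82 CPM at 0 h, 57.4 ± 7.86 CPM at 3 h (SD, n = 4), with 37.4 to 51.3 CPM at 6 h.

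Genes for the other contents of azurophil granules did not fall as a group. Of 14 tested, 4 fell and 6 rose at 3 h against 0 h, and 6 fell and 6 rose at 6 h. Their medians were 0.04 and -0.05. Among all genes tested, 27.5% fell and 26.9% rose at 3 h, and 30.4% and 29.6% at 6 h. Lyz2, lysozyme, changed by -0.53 ± 0.0622 at 3 h, whereas the lysosomal protease genes Ctsd and Ctsb were at 2.08 ± 0.0763 and 2.24 ± 0.137 at 6 h against 0 h. Srgn, the proteoglycan that holds granule proteases, averaged 914 ± 49.4 CPM at 0 h, 2087 ± 49.1 CPM at 3 h and 715 ± 55.4 CPM at 6 h. Ctsc codes for the protease that activates Elane, Prtn3 and Ctsg products, and averaged 7.88 ± 0.82 CPM at 0 h, 8.83 ± 1.89 CPM at 3 h and 7.45 ± 0.79 CPM at 6 h.

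Of 16 secondary and tertiary granule genes, which follow at the myelocyte stage and later, 9 fell and 3 rose at 3 h and 11 fell and 4 rose at 6 h against 0 h, with a median of -0.69 at 6 h. Ltf, lactoferrin, changed by -1.13 ± 0.0570 and Ngp by -0.94 ± 0.0632 at 6 h against 0 h. Of 12 mature neutrophil genes, 3 fell and 5 rose at 3 h against 0 h, with a median of 0.07. At 6 h against 0 h 5 fell and 3 rose, with a median of -0.14. Shares of all genes tested were 27.5% lower and 26.9% higher at 3 h, and 30.4% and 29.6% at 6 h. S100a8 averaged 13409 ± 2044 CPM at 0 h, 10959 ± 793 CPM at 3 h and 10878 ± 448 CPM at 6 h. Of 20 proliferation genes, 14 fell and 1 rose at 3 h, and 17 fell and 0 rose at 6 h against 0 h, with Mki67 at -0.81 ± 0.0932 and Aurka at -1.69 ± 0.184 at 6 h.

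Markers of other cells were followed over the same times, where 30.4% of all genes tested fell and 29.6% rose at 6 h against 0 h. Of 14 tested erythroid genes, 14 fell at 6 h against 0 h, and their summed level was 137 to 382 CPM at 0 h, 22.6 to 60.7 CPM at 3 h and 10.9 to 25.2 CPM at 6 h. Of 10 platelet and megakaryocyte genes, 7 fell and 1 rose at 6 h against 0 h, the sums being 147 to 155, 28.6 to 38.4 and 46.4 to 58.9 CPM. Of 7 eosinophil genes, 6 fell at 6 h. Of 5 tested B and plasma cell genes, 3 fell and 0 rose. Of 3 tested T and NK cell genes, 2 fell and 0 rose. That list shares Nkg7 with the progenitor surface and early genes. Nkg7 averaged 8.23, 2.54 and 0.767 CPM at 0, 3 and 6 h. Among 11 monocyte genes, 4 fell and 3 rose, near those shares of all genes, with a median of -0.80. At 3 h against 0 h 6 fell and 4 rose, with a median of -1.22, beside 27.5% and 26.9% of all genes tested. Csf1r went the other way from these medians, at 155 ± 16.7 CPM at 0 h, 409 ± 20.8 CPM at 3 h and 501 ± 31.7 CPM at 6 h. Of 5 tested basophil and mast cell genes none passed at 6 h against 0 h in edgeR and 1, Cd200r3, had an unadjusted p under 0.05. Mcpt8 averaged 1.63 ± 1.82 CPM at 6 h, against 2.14 ± 2.60 CPM at 0 h. The part of these other cells in the fall of the 6 genes was not tested. Keratin genes Krt5 and Krt14 had 0 counts in all 12 Ics libraries. Of 13 tested neighbours of Prss57, Prtn3 and Elane on chromosome 10, 8 fell and 1 rose at 6 h against 0 h, with a median of -0.23. Among them R3hdm4 averaged 571 ± 10.0, 472 ± 22.0 and 435 ± 25.4 CPM at 0, 3 and 6 h, and Cfd, which starts 2637 bases past Elane, was near 0.

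Across tissues, the 6 genes were abundant in the bone marrow derived neutrophil and monocyte libraries and at or near 0 in blood libraries. Mpo ranged from 101 to 764 CPM, with a median of 407 CPM, in the 8 neutrophil libraries whose markers match, and from 115 to 1007 CPM, with a median of 553 CPM, in the 7 matching monocyte libraries. The 2 further libraries labelled neutrophil, IVIG replicate 5 and PBS replicate 1, carried the blood mark and had 0 counts of Mpo, Elane, Prtn3, Ctsg and Ms4a3. The library labelled monocyte, PBS replicate 1, carried the neutrophil mark, with 707 CPM of Mpo. Mature neutrophil genes summed to 43508 to 93229 CPM in the matching neutrophil libraries, against 1669 to 8691 CPM in the matching monocyte libraries. The monocyte and monocyte precursor genes overlapped, with sums of 937 to 2459 CPM in these neutrophil and 759 to 7282 CPM in these monocyte libraries.

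**Figure D4:**
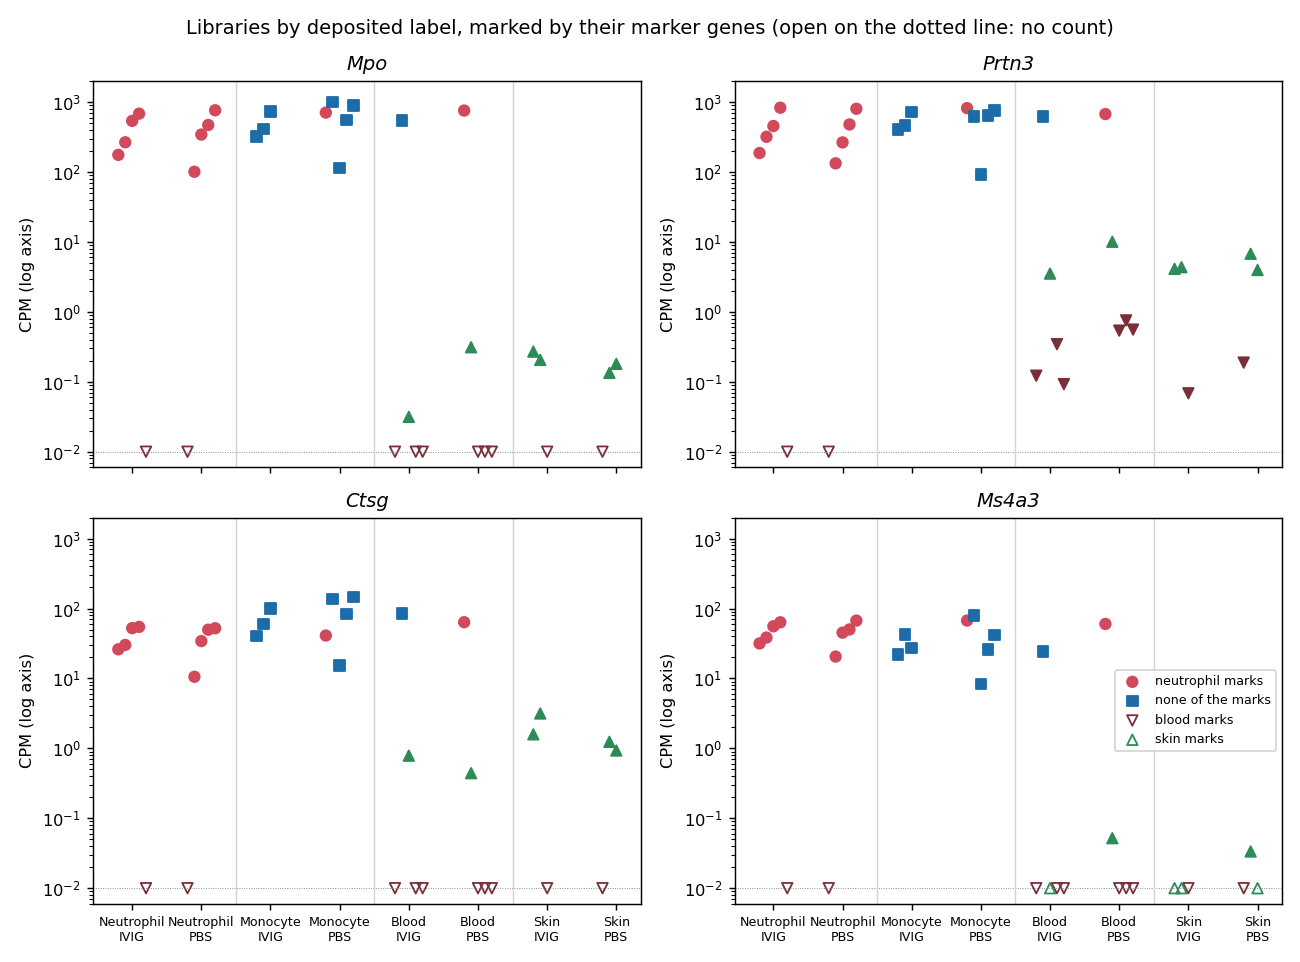
Level of Mpo, Prtn3, Ctsg and Ms4a3 (y, CPM, log axis; open symbols on the dotted line have no count) in 34 libraries by deposited label (x), with colour and shape giving the marker genes. Libraries with blood marks sit at 0 for Mpo, Ctsg and Ms4a3 under every label, and libraries with skin marks hold 3.52 to 10.1 CPM of Prtn3.

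The 6 genes summed to 335 CPM in the lowest and 1980 CPM in the highest of the 8 matching neutrophil libraries, a wide range, with a median of 1082 CPM. The lowest was the only S2 library among them and the next lowest, IVIG replicate 1 at 547 CPM, the only S5 one, while the 6 S3 libraries held 813 to 1980 CPM, with a median of 1340 CPM. In the matching monocyte libraries the sum was 302 CPM in the S2 library, 1481 to 2189 CPM in 3 of S3 and 919 to 2369 CPM in 3 of S5. With 1 library each of S2 and S5, set code and library cannot be told apart among the neutrophil libraries. The library with the lowest sum, PBS replicate 2, had the highest mature neutrophil sum, 93229 CPM, and the lowest proliferation sum, 1605 CPM. The library with the highest sum, PBS replicate 5, had the lowest mature neutrophil sum, 43508 CPM, and a proliferation sum of 3498 CPM. Basophil and mast cell genes summed to 1.76 CPM in that lowest and 178 CPM in that highest library, and erythroid genes to 171 and 1284 CPM. In the Ics libraries at 0 h the 6 genes summed to 167 to 374 CPM, the mature neutrophil genes to 58911 to 66297 CPM and the proliferation genes to 860 to 1122 CPM. The 2 experiments were separate, and their levels are set side by side without a test.

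**Figure D5:**
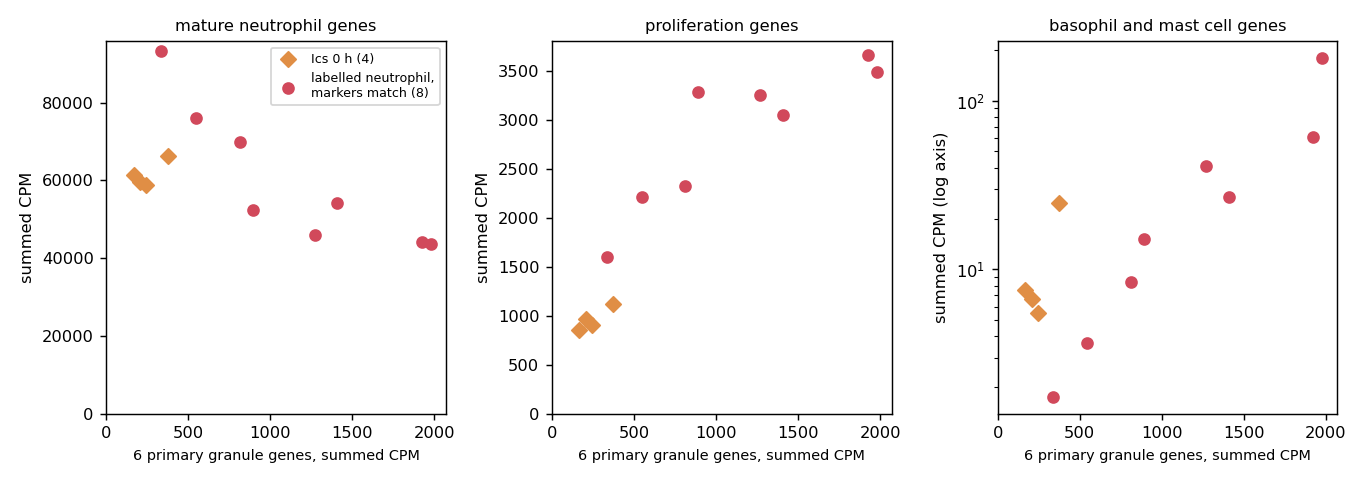
Summed level of mature neutrophil genes, proliferation genes, and basophil and mast cell genes (y, CPM; log axis in the last panel) against the sum of the 6 primary granule genes (x, CPM) in 8 matching neutrophil and 4 Ics 0 h libraries. The neutrophil library at 335 CPM has 93229 CPM of mature genes, the one at 1980 CPM has 43508.

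Neutrophil and monocyte libraries were compared to ask whether the granule genes differ between the labelled cell types. With all 18 libraries as labelled, 0 of 6 passed in edgeR, where 2.78% of all genes were lower and 5.42% higher in neutrophil libraries (4141 genes had an unadjusted p under 0.05). DESeq2 passed 1 of 6, Ctsg at -1.51 (adjusted p = 0.0222). Limma voom passed 2, Ctsg at -1.003 (adjusted p = 0.0204) and Prss57 at 1.13 (adjusted p = 0.00345). Of 15991 genes tested, DESeq2 called 1819 higher and 1303 lower, and voom 3786 and 2351, so many other genes passed in these fits too. Ctsg was at -1.33 ± 0.546 (edgeR adjusted p = 0.129). With only the libraries whose markers match, Ctsg was lower in neutrophil libraries at -1.15 ± 0.296 (edgeR adjusted p = 0.00987), as were 6.57% of all genes, with 14.6% higher. Ctsg then held 10.6 to 54.6 CPM, with a median of 42.004 CPM, in neutrophil libraries, and 15.4 to 146 CPM, with a median of 83.6 CPM, in monocyte libraries, so the groups overlapped. Basophil and mast cell genes summed to 1.76 to 178 CPM in these neutrophil libraries and 69.5 to 225 CPM in these monocyte libraries, and their part in the difference was not tested.

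The set codes are unevenly spread over these cell types, so the comparison was repeated with the set code as a term and within S3, alternatives added after seeing the data. With all libraries 0 of 6 passed in edgeR either way, with Ctsg at -1.70 ± 0.643 with the set term (adjusted p = 0.118). In matching libraries with the set term Ctsg was at -1.26 ± 0.307 (edgeR adjusted p = 0.00936), and no other of the 6 passed. Within S3, 6 matching neutrophil libraries held 30.1 to 54.6 CPM of Ctsg, against 83.6 to 146 CPM in 3 matching monocyte libraries, without overlap. Ctsg was lower there at -0.88 ± 0.213 (edgeR adjusted p = 0.0079), Ms4a3 higher at 1.16 ± 0.207 (adjusted p = 0.00128) and Prss57 higher at 1.402 ± 0.2496 (adjusted p = 0.00125). Of all genes tested within S3, 15.3% were lower and 18.9% higher in neutrophil libraries. Ms4a3 and Prss57 therefore passed only in this subset of the edgeR fits, and Ctsg in every edgeR fit named here that was limited to matching libraries.

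Relative to Mpo, 3 of the transcripts also held other shares in the 2 cell types. Ctsg counts were 10.2 ± 2.4% of Mpo in 8 neutrophil libraries and 14.2 ± 1.3% in 7 monocyte libraries (SD, exact permutation test, adjusted p = 0.0186). Ms4a3 stood at 13.1 ± 4.2% in neutrophil and 6.49 ± 2.32% in monocyte libraries (exact permutation adjusted p = 0.0186), and Prss57 at 6.59 ± 3.14% and 3.00 ± 2.23% in neutrophil and monocyte libraries (adjusted p = 0.0381, exact). Elane and Prtn3 relative to Mpo did not pass the test (exact permutation adjusted p = 0.255 and 0.390). All these groups overlapped. Within S3, the shares of Mpo were 9.40 ± 1.68% in 6 neutrophil and 15.0 ± 1.4% in 3 monocyte libraries for Ctsg, 11.1 ± 2.2% and 4.35 ± 0.57% for Ms4a3, and 5.16 ± 1.24% and 1.62 ± 0.21% for Prss57, in that order of cell types. Each of these 3 was without overlap (exact permutation adjusted p = 0.0397 over 5 tests).

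In the 10 libraries that carried the blood mark, Mpo, Elane, Ctsg and Ms4a3 had 0 counts, which allows up to 0.108 CPM for 3 counts in the shallowest of them. Haemoglobin took 89.2% to 98.3% of their counts, so little of each library came from other transcripts. Prtn3 reached 0 to 0.755 CPM in them, or 0 to 9.45 CPM when haemoglobin is left out of the total, and Prss57 0 to 0.0917 CPM. The blood group label itself held 2 libraries apart from this. PBS replicate 1 had 757 CPM of Mpo and the neutrophil mark. IVIG replicate 2 had 549 CPM of Mpo and no mark, like the libraries taken to match monocyte. It held 705 CPM of Csf1r and 937 CPM of Ccr2, against 25.4 to 865 and 72.9 to 1243 CPM in the matching monocyte libraries.

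In the 6 libraries with the skin mark, Prtn3 stood at 3.52 to 10.1 CPM, with a median of 4.23 CPM, above the other 5 genes. Ctsg was at 0.442 to 3.15 CPM, Mpo at 0.0315 to 0.312 CPM and Ms4a3 at 0 counts in 4 of 6. The 8 basophil and mast cell genes summed to 436 to 765 CPM there, with Cma1 at 220 to 380 CPM and Tpsb2 at 104 to 171 CPM. The mature neutrophil genes summed to 155 to 278 CPM in these 6 libraries. The part of mast cells or neutrophils in the Prtn3 level was not tested.

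IVIG against PBS was the contrast named for the series. In edgeR with all libraries as labelled, 0 genes passed in neutrophil, monocyte, blood or skin libraries, 0.0% of those tested in each. An unadjusted p under 0.05 was held by 73, 286, 81 and 157 genes. DESeq2 passed 0, 3, 1 and 1 genes and limma voom 0, 0, 1 and 0, in the same order of tissues. The matching neutrophil libraries held 176, 266, 539 and 683 CPM of Mpo with IVIG, and 101, 343, 470 and 764 CPM with PBS. The 2 groups overlapped over nearly their whole range. Mpo differed by -0.01 ± 1.28 with all neutrophil libraries and the other 5 genes by 0.06 to 0.17 (edgeR adjusted p = 0.9999 for each, n = 5 each). With matching libraries alone Mpo differed by -0.02 ± 0.537 and the others by 0.03 to 0.15 (edgeR adjusted p = 0.9996 for each, n = 4 each). In monocyte libraries Mpo stood at 325, 411 and 737 CPM with IVIG, and at 707, 1007, 115, 553 and 894 CPM with PBS, the first of these PBS libraries being the one with the neutrophil mark. Mpo differed there by -0.44 ± 0.370 and Elane by -0.52 ± 0.4599, and neither passed the test. With the 7 matching libraries they differed by -0.47 ± 0.383 and -0.58 ± 0.488. Without PBS replicate 2, Mpo differed by -0.14, Elane by -0.13, Ctsg by -0.011 and Ms4a3 by -0.12.

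Of the libraries labelled blood 4 of 10, and of those labelled skin 2 of 6, go against their label. In blood only Prtn3 had enough counts to be tested, at -0.39 ± 1.87. It was at -1.62 ± 0.461 with the 6 matching libraries (edgeR adjusted p = 0.740), at -5.62 without IVIG replicate 2 and at 3.64 without PBS replicate 1. In skin Prtn3 was at -0.79 ± 0.595 and Ctsg at 0.95 ± 0.805, and neither passed. With the 4 matching skin libraries Prtn3 was at -0.42 ± 0.414 (edgeR adjusted p = 0.927) and Ctsg at 1.07 ± 0.579 (adjusted p = 0.746), and without IVIG replicate 2 Ctsg was at 0.17. Matching libraries alone gave 0 genes in neutrophil and in monocyte libraries in edgeR. Blood gave 3 higher and 2 lower genes and skin 4 higher and 0 lower, none of them among the 6. Neutrophil, monocyte, blood and skin libraries then had 134, 306, 703 and 1446 genes at an unadjusted p under 0.05. With the set code as a term, 0 of the 6 passed in any tissue where it could be fitted, and the same held within S3 for neutrophil and blood libraries. Among S3 monocyte libraries IVIG replicate 3 was the only one with IVIG, so no test is read there. These intervals are wide, so equal levels are not shown, and the values hold only for the sample names as deposited.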

How the data were processed

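Bulk RNA sequencing was measured in 46 libraries. The authors deposited estimated counts per gene symbol, scaled by transcript length. Per the submitters' processing notes, kallisto 0.46.1 and GRCm38 were used, and the tool that summed and scaled transcripts is not given in the sources used here. Per the labels' protocols, libraries were enriched with oligo(dT) and made from random-hexamer cDNA. The deposited estimated counts were rounded, and levels are CPM of library totals, which ran from 18965431 to 43176537. Every adjusted p of a gene comes from the edgeR 4.0.16 quasi-likelihood F test in R 4.3.3, with TMM factors, filterByExpr at a minimum count of 10, and Benjamini-Hochberg adjustment over all genes tested at a threshold of 0.05, unless DESeq2 1.42.0 or limma 3.58.1 is named. The SE of a log2 change was taken from its F statistic. The fitting was tested on simulated data. Ics, neutrophil, monocyte, blood and skin libraries were fitted separately, and neutrophil and monocyte libraries together. Ratios to Mpo were tested with exact permutation tests in scipy 1.17.1. Counting floors are 3 counts of the library total and cover counting error only. No pair among 77 pairs of libraries held identical values. Alternatives were other scalings, tools, filters and thresholds, libraries left out, a replicate block, and libraries whose markers match their label. The set code of the titles as a term, and S3 libraries alone, were added after seeing the data.

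The 6 genes, the marker lists, the marker limits and the ratios were chosen with earlier results of these data known. Of other lists, the text names up to 4 genes with the smallest p in a comparison, and the genes most alike over the Ics libraries. Kit, Myb, Srgn, Ctsc, S100a8, Mcpt8, Cfd, R3hdm4, Fstl3 and Plppr3 were named outside that rule, after their values had been seen.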

Additional observations from a re-analysis of the deposited data

Results flagged for a closer look

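Among 48 sets of 4 or 5 libraries, each a gene within a group, 13 held a library far from the others, where chance gives about 1 in 20. Of these, 12 come from 2 libraries labelled blood whose markers go against the label. The blood library IVIG replicate 2 has none of the blood, skin or neutrophil marks, like the libraries taken to match monocyte. It held 549 CPM of Mpo, 177 of Elane, 620 of Prtn3, 84.6 of Ctsg, 24.1 of Ms4a3 and 7.41 of Prss57. The other 4 IVIG blood libraries reached at most 0.0315 CPM of Mpo and 3.52 CPM of Prtn3. The blood library PBS replicate 1, which has the neutrophil mark, held 757 CPM of Mpo, 325 of Elane, 674 of Prtn3, 63.7 of Ctsg, 60.1 of Ms4a3 and 31.0 of Prss57. The other 4 PBS blood libraries reached at most 0.312 CPM of Mpo and 10.1 CPM of Prtn3. The monocyte library PBS replicate 3 held 92.3 CPM of Prtn3, against 626 to 819 CPM in the other 4 PBS monocyte libraries. That library is the only monocyte library of set code S2. It had 8984 genes with at least 5 counts, against 14408 to 16950 in the other 4, and 25.4 CPM of Csf1r, against 224 to 865 CPM. It had 72.9 CPM of Ccr2, against 297 to 1243 CPM, and 1706 CPM of Lyz2, against 6357 to 17122 CPM. The part of these in its low Prtn3 was not tested.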

How the results depend on the processing

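In the Ics experiment 6 of 6 genes fell in all 3 comparisons under every alternative run, and Mpo at 6 h against 0 h ranged from -4.03 to -3.42 with 1 library left out. The largest adjusted p in those fits was 0.046, for Prss57 at 6 h against 3 h (edgeR). With a replicate block on the m number, 6 of 6 fell again, with Mpo at -1.48 ± 0.106 for 3 h against 0 h, -3.75 ± 0.121 for 6 h against 0 h and -2.27 ± 0.120 for 6 h against 3 h. Libraries with the same number correlated at 0.048 to 0.184 and others at -0.098 to 0.017, and 12 of 12 correlated best with their own number, a hint from the data and not from the design. In neutrophil against monocyte libraries, 1 of 6 was lower under DESeq2, limma voom and matching libraries alone, and 1 higher under voom. There Prss57 was at 0.082 with library totals alone, 1.13 under voom and 0.30 with matching libraries, and Ms4a3 at 0.82 under voom and 0.19 with matching libraries. With 1 library left out Ms4a3 ranged from -0.29 to 0.063 and Prss57 from -0.22 to 0.24. The set term gave Prss57 0.085 with all libraries, and Ms4a3 0.53 and Prss57 0.66 with matching ones, where 1 of 6 was lower. Within S3 Elane was at 0.11, Ms4a3 at 1.04 and Prss57 at 1.31 with all libraries, and at 0.26, 1.16 and 1.402 with matching ones, where 1 of 6 was lower and 2 higher. Genes called higher and lower there numbered 867 and 444, against 35 and 108 with library totals alone, 3786 and 2351 under voom, 1819 and 1303 under DESeq2, 2316 and 1041 with matching libraries, 671 and 194 with the set term, 1577 and 947 within S3, 2221 and 649 with matching libraries and the set term, 3198 and 2598 with matching libraries within S3, and 1669 and 767 at an adjusted p under 0.1. For IVIG against PBS, neutrophil libraries under voom gave Elane -0.058, Prtn3 -0.10, Ctsg -0.14, Ms4a3 -0.15 and Prss57 -0.046. With 1 neutrophil library left out the ranges were -0.44 to 0.49 for Mpo, -0.15 to 0.47 for Elane, -0.47 to 0.65 for Prtn3, -0.086 to 0.44 for Ctsg, -0.21 to 0.34 for Ms4a3 and -0.10 to 0.36 for Prss57. Monocyte Prtn3 was at 0.13 under voom and 0.022 with matching libraries, and with 1 library left out it ranged from -0.15 to 0.025 and Prss57 from -1.42 to 0.013. Blood Prtn3 ranged from -5.62 without IVIG replicate 2 to 3.64 without PBS replicate 1, and skin Ctsg from 0.17 to 1.29. Of the alternatives on set code, added after seeing the data, the set term put neutrophil Mpo at 0.32. Within S3 neutrophil Elane was at -0.33, Prtn3 -0.34, Ctsg -0.29, Ms4a3 -0.36 and Prss57 -0.13. Monocyte Mpo was at 0.063 and Prtn3 at 0.058 within S3, where IVIG replicate 3 was the only IVIG library. The cause of these changes was not tested.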
